A study of Mus musculus with 8 samples.

Results

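The netrin, Slit and Robo guidance genes were examined in cultured mouse neurons that lack the kinase NUAK1. They comprised 10 genes of the 32726 gene identifiers in the raw count table, found by matching each Ensembl identifier to its symbol. The set held 4 ligands (Ntn1, Slit1, Slit2 and Slit3) and 6 receptors (Dcc, Unc5a, Unc5c, Unc5d, Robo1 and Robo2). The libraries came from neurons of Nuak1 knockout mice (KO, n = 4) and of wild-type mice (WT, n = 4), taken from embryos and grown for 5 days in vitro in serum-free medium, a stage of ongoing axon development. The knockout was constitutive, so the gene was missing from every cell type of the culture, and no library received a treatment. KO animals die at birth, and the mice were kept on a C57Bl/6JRj background. A strain label of unstated meaning reads BJ for KO1 to KO3, BK for KO4, WT2 and WT4, BO for WT1 and BQ for WT3, so it is largely tied to genotype. The labels name the tissue as cortex or hippocampus for every library, and the study describes cortical cultures and 4 animals per condition. The labels do not say which culture or litter a library came from, so p-values measure the spread between these libraries only.

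Netrins and Slits are secreted proteins that steer growing axons. Netrin-1 attracts axons through the receptor DCC and repels them through receptors of the UNC5 family, which also bind FLRT proteins. Slits repel axons and limit midline crossing through ROBO receptors, with heparan sulfate as a cofactor. In the cortex these cues are known for guiding callosal, corticofugal and thalamocortical axons, and for acting on neuronal migration and axon branching.

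Each library held 31247078 to 67155004 counts, so that a count of 0 would allow up to 3 counts (counting error only). Nuak1 served as the check of the labels, with 86 to 102 counts per KO library against 1612 to 4598 per WT library (log2 fold change −4.89 ± 0.13 SE, edgeR adjusted p = 1.24e-07). Libraries KO1 and WT1 stood apart from the rest, at −27.6 and −28.4 on a first principal component that held 51.9% of the variance, against 0.0733 to 22.6 in the others. Both were run on lane A, as were KO4 and WT3. Abundance is given as CPM, the standard library-scaled unit of counts, computed on TMM-scaled library totals. The Y-linked gene Ddx3y reached 78.8 CPM for KO3, 84.4 CPM for WT4 and no more than 0.0836 CPM for the rest, so each genotype held 1 such library. The neuronal label was checked against 7 neuron markers, whose summed level spanned 5010 to 6480 CPM across KO and 5050 to 6140 CPM across WT libraries. Summed levels of 10 microglia markers (KO 3.52 to 41.1 CPM, WT 3.91 to 17.1 CPM) and of 10 endothelial and fibroblast markers (18.5 to 38.1 and 8.89 to 49.7 CPM) were far lower, with Tmem119 and Cldn5 at 3 counts or fewer in every library. Markers of astrocytes (1580 to 2420 CPM over the 8 libraries), the oligodendrocyte lineage (484 to 608 CPM) and progenitors (281 to 457 CPM) were not scarce. The check therefore does not show neurons alone.

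All 10 genes were detected in every library, from 144 counts for Slit3 in KO1 to 22219 counts for Robo1 in WT2, and all passed the filter on low counts. To compare levels between genes, CPM was divided by exon length in kilobases. On this scale Robo1 was highest, with a mean over the 8 libraries of 24.2 CPM per kb, followed by Slit1 and Robo2, both at 18.3 CPM per kb. These neighbours in the order overlapped between libraries. Robo2 exceeded Unc5d (11 CPM per kb) in 8 of 8 libraries, and their ranges did not overlap. Unc5d, Unc5c (8.78 CPM per kb) and Unc5a (7.83 CPM per kb) overlapped in turn, as did Unc5a and Dcc (4.61 CPM per kb). Dcc exceeded Slit2 (3.07 CPM per kb), Slit2 exceeded Ntn1 (1.79 CPM per kb) and Ntn1 exceeded Slit3 (1.40 CPM per kb) within each of the 8 libraries, although the ranges over libraries overlapped. The highest of the 10, Robo1, lay at the 83.9th percentile of tested genes on this scale and the lowest, Slit3, at the 23.2nd. The order depended on the length used. Per kilobase of coding length it was Robo2 (66.3 CPM per kb), Robo1 (45.3), Unc5c (37.5), Unc5d (34.1) and Slit1 (23.6), and Slit2 (9.84) lay above Dcc (8.56), whereas Slit3 remained lowest at 1.86 CPM per kb.

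Ntn1 (ENSMUSG00000020902, GRCm38 chromosome 11, 68209364 to 68386826, protein coding), which encodes the secreted ligand netrin-1, did not differ between the genotypes beyond the spread of the libraries. It had 9.58, 10.9, 10.7 and 12.2 CPM in KO1 to KO4 and 8.21, 17.0, 11.7 and 9.60 CPM in WT1 to WT4. WT2 held the highest and WT1 the lowest value, so the WT range enclosed the KO range. The log2 fold change of KO over WT was −0.08 ± 0.17 (SE), with an edgeR adjusted p of 0.896, and turned to 0.14 without WT2. Lane A gave 0.13 and lane B gave −0.32, each fitted by itself with no surrogate variable.

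Dcc (ENSMUSG00000060534, protein coding, chromosome 18), the receptor through which netrin-1 attracts axons, was among the genes with the larger differences. It had 38.1, 32.6, 29.0 and 32.4 CPM in KO1 to KO4 and 36.0, 37.2, 53.2 and 39.0 CPM in WT1 to WT4. In 3 of the 4 KO libraries the value lay below every WT library, but KO1 exceeded WT1 and WT2, so the groups overlapped. Means over the 4 libraries were 33.0 ± 3.78 CPM (SD) for KO against 41.3 ± 8.0 CPM for WT. The log2 fold change was −0.32 (SE 0.14), with an unadjusted p of 0.0437 in the edgeR model across all genes and an adjusted p of 0.463. It came to −0.34 from lane A and −0.32 from lane B when each was fitted by itself (as throughout for single lanes). Leaving out single libraries gave −0.46 (without KO1) to −0.18 (without WT3, the highest library). The unadjusted p was under 0.05 in 11 of 22 alternatives (edgeR, DESeq2 or limma-voom). In edgeR it was 0.0609 with no surrogate variable, 0.123 with 2 (log2 fold change −0.19) and 0.105 with strain labels fitted (log2 fold change −0.17). With single libraries left out it ranged from 0.00408 (without KO1) to 0.139 (without KO3). It lay above 0.05 without KO2, KO3, KO4, WT3 (0.0669) or WT4.

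Slit1 (ENSMUSG00000025020, chromosome 19, 41597824 to 41747275), Slit2 (ENSMUSG00000031558, chromosome 5, 47981291 to 48307735) and Slit3 (ENSMUSG00000056427, chromosome 11, 35121456 to 35708507) encode the repulsive ligands of the ROBO receptors. Slit1 had 50.6, 96.4, 118 and 139 CPM in KO1 to KO4 and 67.2, 147, 127 and 124 CPM in WT1 to WT4. KO1 and WT1 held the lowest values of their genotypes and the remaining libraries overlapped. Its log2 fold change was −0.21 ± 0.12 (SE), with an edgeR adjusted p of 0.550, and it was −0.11 without WT1, −0.13 without KO1, −0.04 from lane A and −0.35 from lane B. Slit3 ordered the libraries of each genotype in the same way at a lower level, with 4.12, 7.80, 9.52 and 9.53 CPM in KO1 to KO4 and 5.88, 12.1, 9.87 and 9.09 CPM in WT1 to WT4. Its log2 fold change was −0.25 ± 0.14 (SE), with an edgeR adjusted p of 0.545, and it was −0.15 without WT1, −0.15 without WT2, −0.21 from lane A and −0.31 from lane B. Slit2 differed from both. It had 49.1, 37.5, 44.1 and 36.0 CPM in KO1 to KO4 and 46.4, 44.7, 63.0 and 49.8 CPM in WT1 to WT4, so that 3 of the 4 KO libraries lay below every WT library and KO1 lay among them. Its log2 fold change was −0.29 (SE 0.14, unadjusted p = 0.0594 and adjusted p = 0.493, edgeR). It was −0.16 without WT3, the highest library, −0.37 from lane A and −0.22 from lane B.

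Slit2 and Slit3 each carry a copy of the microRNA miR-218 inside an intron, on the strand of the host gene. In other systems miR-218 is known as a repressor of Robo1, so the 3 mature arms are shown here with their coordinates. Poly-A libraries do not measure mature microRNAs, and the count table held 0 to 4 counts for Mir218-1 and 0 for Mir218-2. The sequences are from RefSeq on GRCm38.p6, 5′ to 3′, with the seed (bases 2 to 8) in capitals. The 5p arm is identical at both places, chr5:48223966-48223986 in Slit2 and chr11:35616840-35616860 in Slit3, both on the plus strand. The 3p arms, at chr5:48224005-48224026 and chr11:35616882-35616903, carry different seeds.
mmu-miR-218-5p: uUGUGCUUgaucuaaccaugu
mmu-miR-218-1-3p: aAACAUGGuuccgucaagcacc
mmu-miR-218-2-3p: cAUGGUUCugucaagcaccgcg

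The UNC5 receptors convey repulsion by netrin-1, and UNC5D is also a receptor for FLRT proteins on migrating cortical neurons. Unc5a (ENSMUSG00000025876, chromosome 13, 54945151 to 55006018) varied most between libraries. It had 8.72, 27.7, 39.3 and 47.6 CPM in KO1 to KO4 and 9.06, 51.7, 45 and 32.0 CPM in WT1 to WT4. The highest library held 5.92 times the level of the lowest, and KO1 and WT1 were the 2 lowest. The genotypes overlapped, with a log2 fold change of −0.09 ± 0.16 (SE) and an edgeR adjusted p of 0.871, and it turned to 0.08 without WT2. Lane A gave 0.07 and lane B gave −0.33. The Unc5a exons overlap those of Hk3 on the opposite strand, and whether the counting used strand is not given in the sources used here. Hk3 itself had 0 to 37 counts.

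Unc5c (ENSMUSG00000059921, chromosome 3, 141465564 to 141834924) had 159, 96.9, 91.1 and 81.5 CPM in KO1 to KO4 and 130, 93.1, 124 and 80.1 CPM in WT1 to WT4. KO1 and WT1 were the highest libraries of their genotypes. The mean was 107 CPM in both genotypes (n = 4 libraries each, SD 35 for KO and 23.9 for WT). The log2 fold change was −0.05 ± 0.18 (SE), with an edgeR adjusted p of 0.934, and its sign reversed without KO4, at 0.02, and without WT3, at 0.14. Lane A gave −0.08 and lane B gave 0.11.

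Unc5d (ENSMUSG00000063626, chromosome 8, 28646717 to 29219671) had 93.2, 86.1, 98.7 and 81.9 CPM in KO1 to KO4 and 121, 123, 72.7 and 114 CPM in WT1 to WT4. WT1, WT2 and WT4 lay above every KO library, whereas WT3 was the lowest of all 8. The log2 fold change was −0.25 ± 0.14 (SE), with an edgeR adjusted p of 0.546. Without WT3 it was −0.40 with an adjusted p of 0.0376 (edgeR), where 91 genes passed the threshold in place of 8, so the adjusted call rested on the absence of 1 library. The sign was negative in all 22 alternatives, from −0.53 to −0.15, with −0.15 from lane A and −0.36 from lane B.

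Robo1 (ENSMUSG00000022883, 72027518 to 73047491) and Robo2 (ENSMUSG00000052516, 73891976 to 75447443), the receptors of the Slits, lie 844484 bp apart on chromosome 16. Robo1 had 182, 191, 178 and 267 CPM in KO1 to KO4 and 273, 346, 160 and 249 CPM in WT1 to WT4. KO4 lay within the WT values and WT3 below every KO library. The log2 fold change of −0.33 was the largest of the 10 in size but also the least precise (SE 0.23, edgeR adjusted p = 0.641). Lane A by itself gave 0.05 and lane B gave −0.70, and it was −0.13 without WT2, −0.22 without KO1, −0.51 without KO4 and −0.53 without WT3. In a model of all 8 libraries with the surrogate variable, unlike the single-lane fits, the difference between lanes was −0.78. Its interaction term, fitted after the data had been seen, had an edgeR adjusted p of 0.706. In that model 0 genes passed the threshold, 1343 genes had an unadjusted p under 0.05, and none of the 10 guidance genes did.

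Robo2 had 347, 246, 242 and 270 CPM in KO1 to KO4 and 407, 293, 336 and 272 CPM in WT1 to WT4. In 3 of the 4 KO libraries the value lay below every WT library, by a small margin for KO4 against WT4, and KO1 exceeded WT2, WT3 and WT4. Means over the 4 libraries were 276 ± 48.6 CPM (SD) for KO against 327 ± 59.7 CPM for WT. The log2 fold change was −0.26 (SE 0.10), with the smallest unadjusted p of the 10 genes, 0.0258, which ranked 1019 among all genes tested in edgeR, and an adjusted p of 0.410. Lane A by itself gave −0.28 and lane B gave −0.22, and it was −0.17 without WT3, −0.32 without WT4 and −0.14 with 2 surrogate variables. Fitting the strain label turned it to 0.02 (unadjusted p = 0.872, edgeR). The unadjusted p was under 0.05 in 16 of 22 alternatives (edgeR, DESeq2 or limma-voom). In edgeR it was 0.00121 with lane as a term, 0.0103 without WT4 and 0.165 with no surrogate variable. It was 0.0830, 0.0821 and 0.106 without KO2, KO3 or WT1.

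**Figure D1:**
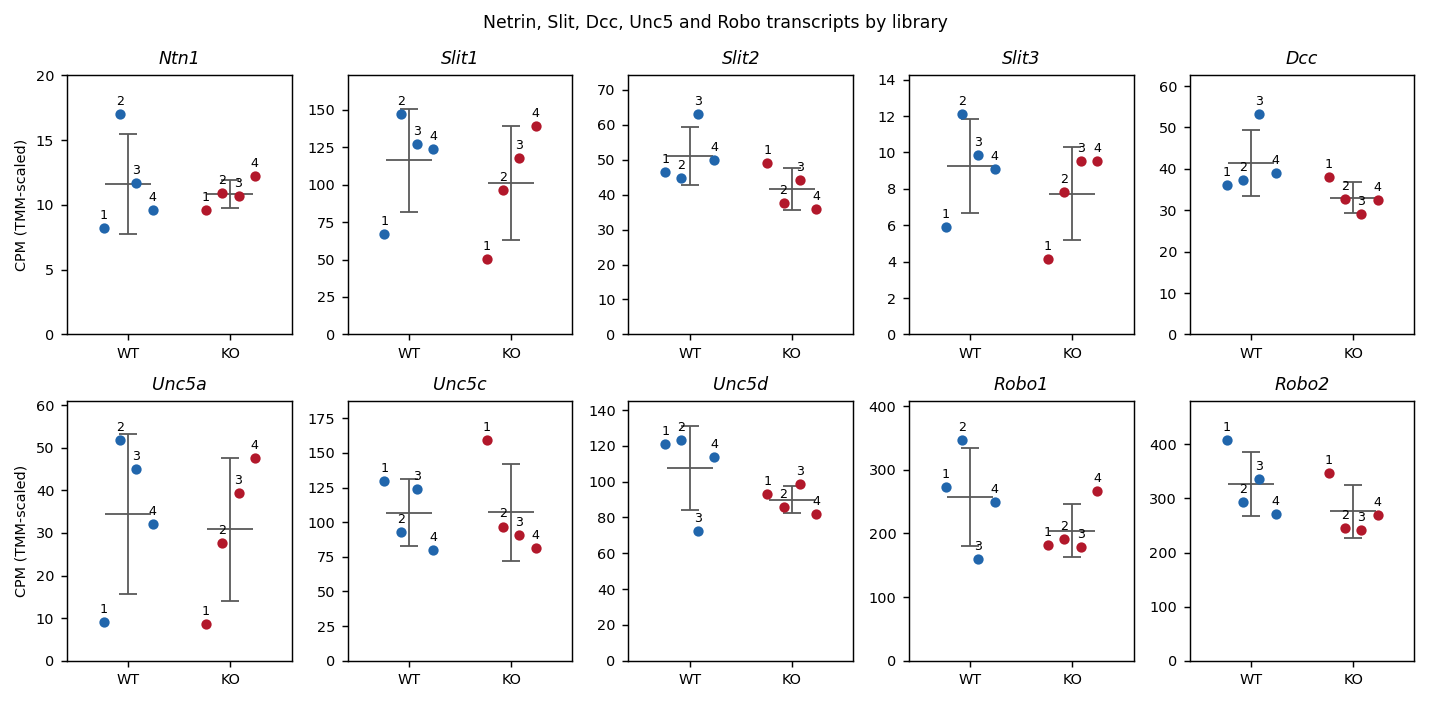
CPM of each gene (y axis, TMM-scaled, each panel from 0) in the 4 WT and 4 KO libraries, with points numbered by replicate, and the mean and SD as bars. The genotypes overlap in all 10 panels, Unc5a spans 8.72 to 51.7 CPM with KO1 and WT1 lowest, and WT3 is highest for Slit2 and Dcc and lowest for Unc5d and Robo1.

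Taking the 10 genes as a set, all 10 fitted log2 fold changes were below 0, from −0.33 to −0.05, as were those of 46.2% of all 16272 genes tested. The median was −0.25 (−0.23 for the 4 ligands and −0.26 for the 6 receptors), against 0.015 over all genes tested. A log2 fold change under −0.2 was found for 7 of the 10, and for 12.7% of all genes. By the edgeR quasi-likelihood test 0 of the 10 passed the adjusted threshold, which 0.0492% of all genes did (0.0369% as lower in KO). DESeq2 and limma-voom also passed 0 of the 10. They put 3 and 2 of them at an unadjusted p under 0.05 in either direction, against 9.6% and 10.5% of all genes. At an unadjusted p under 0.05, Dcc and Robo2 were lower in KO, 2 of 10 against 5.75% of all genes in that direction, and 0 of 10 were higher, against 4.87%. The same 2 genes had an absolute log2 fold change above 0.25 as well, the threshold of the study, which 3.53% of all genes met as lower in KO. Libraries of the 2 genotypes overlapped for each of the 10, whereas 1.12% of all genes had every KO library below every WT library and 1.17% had every KO library above. The genes were chosen with earlier results of these libraries known, and no test was applied to the set. In bulk RNA, fewer cells of a type and less RNA per cell cannot be told apart. The number of the 10 that were lower in KO was 7 for lane A, 9 for lane B and 8 to 10 when single libraries were left out. These fits reuse the same libraries, and the share of all genes below 0 was not worked out for them.

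**Figure D2:**
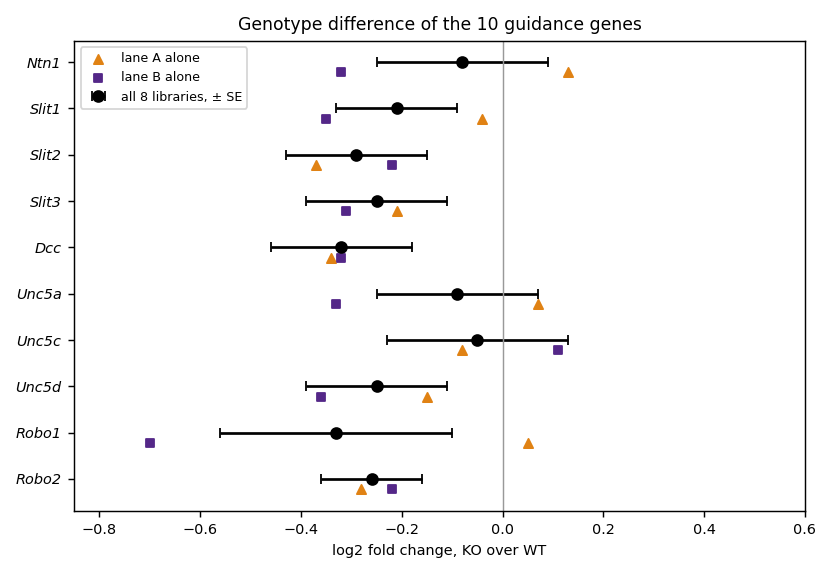
Log2 fold change of KO over WT (x axis) for each gene (y axis), from all 8 libraries with its SE (circles) and from lane A (triangles) or lane B (squares) alone. All 10 circles lie left of 0, and the lanes lie farthest apart for Robo1, at 0.05 and −0.70.

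Most of the variation in these genes lay between libraries of the same genotype. After each gene was centred on its own mean log2 CPM, likeness of a pair of genes was measured as the root-mean-square difference over the 8 libraries, as a description across all 45 pairs. Slit1 and Slit3 were the most alike (0.102 log2 units), followed by Slit2 and Dcc (0.131), Unc5c and Robo2 (0.207), then Slit2 or Dcc with Robo2 (0.237 each) and Unc5d with Robo1 (0.258). The least alike were Unc5a and Unc5c (1.24), receptors of the same family. Of these most alike pairs, Slit1 with Slit3 was the only one from the same gene family.

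Slit1, Slit3 and Unc5a shared low values in KO1 and WT1. In KO1 their centred log2 CPM was −1.02, −0.97 and −1.64, and in WT1 it was −0.61, −0.46 and −1.58. Unc5c and Robo2 were above their means in the same libraries, at 0.61 and 0.22 in KO1 and 0.32 and 0.46 in WT1. Slit2 and Dcc differed little from their means there (0.10 and 0.06 in KO1, 0.02 and −0.02 in WT1). WT3 held a second pattern, with Slit2 and Dcc raised (0.46 and 0.54) and Unc5d and Robo1 lowered (−0.42 and −0.48). WT2 was the highest library for 6 of the 10 genes, at 0.92 for Unc5a, 0.63 for Ntn1 and Robo1, 0.58 for Slit3, 0.52 for Slit1 and 0.33 for Unc5d.

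Summed marker levels of these libraries are given beside the patterns. KO1 and WT1 had 1140 and 1120 CPM for 12 cortical glutamatergic markers, against 1160 to 1380 CPM in the other 6 libraries, and 608 and 607 CPM for 7 oligodendrocyte lineage markers, against 484 to 592 CPM. Their astrocyte marker sums, over 9 genes led by Fabp7 and Slc1a3, were 2300 and 2420 CPM, against 1580 to 2320 CPM. For 12 interneuron markers, led by Gad1, they had 389 and 304 CPM, against 228 to 358 CPM. Their neuron markers summed to 5420 CPM in each, within the 5010 to 6480 CPM of the other 6 libraries. Progenitor sums were 457 and 387 CPM, against 281 to 390 CPM, and hippocampal sums 299 and 354 CPM, against 321 to 406 CPM. Cajal-Retzius sums were 377 and 444 CPM, against 325 to 551 CPM, and microglia sums 8.03 and 3.91 CPM, against 3.52 to 41.1 CPM. WT3 had the lowest sums of the 8 libraries for astrocytes (1580 CPM), oligodendrocyte lineage markers (484 CPM, against 498 to 608 CPM), 9 progenitor markers (281 CPM, against 373 to 457 CPM) and endothelial and fibroblast markers (8.89 CPM, against 18.5 to 49.7 CPM), and the highest of the WT libraries for cortical glutamatergic (1380 CPM), interneuron (358 CPM) and neuron markers (6140 CPM). Between genotypes, fitted log2 fold changes were above 0 for 6 of 7 microglia, 5 of 6 Cajal-Retzius, 7 of 9 astrocyte, 6 of 9 progenitor, 8 of 12 interneuron, 4 of 7 neuron, 6 of 12 cortical glutamatergic, 4 of 8 endothelial and fibroblast, 3 of 7 oligodendrocyte lineage and 3 of 7 hippocampal markers tested, where 46.2% of all genes were below 0. The part of these cell types in the guidance gene values was not tested. Cajal-Retzius markers, led by Reln, summed to 325 to 513 CPM across KO and 372 to 551 CPM across WT libraries, and hippocampal markers, led by Lmo3, to 299 to 406 and 354 to 360 CPM.

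**Figure D3:**
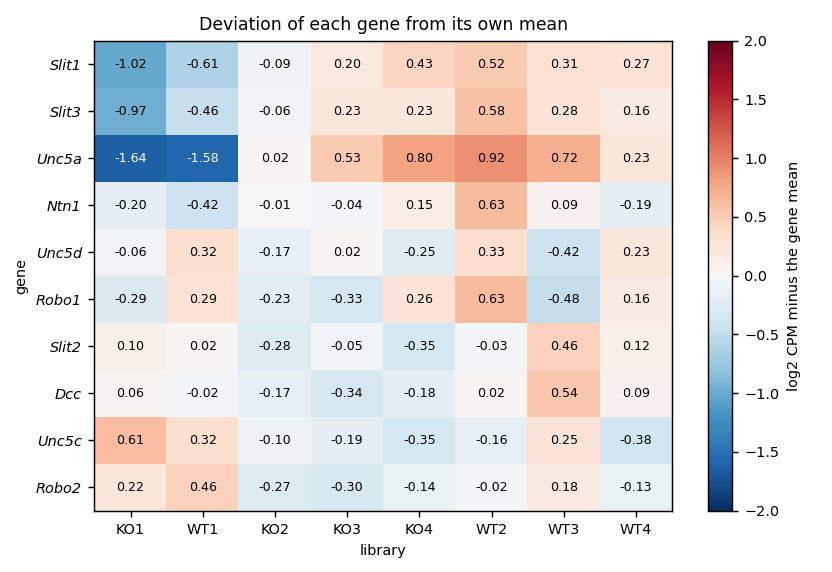
Log2 CPM of each gene (rows) minus its mean over the 8 libraries (columns, with KO1 and WT1 first), in log2 units from blue (below the mean) to red (above). KO1 and WT1 are low for Slit1, Slit3 and Unc5a, down to −1.64, and above the mean for Unc5c and Robo2. In WT3, Slit2 and Dcc are raised and Unc5d and Robo1 lowered.

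Promoter sequence was compared for 4 of these genes, since Slit3 and Unc5a shared the low values in KO1 and WT1 while their relatives Slit2 and Unc5c did not. RefSeq promoters were matched for 6 of the 10 genes. The 250 bases before an annotated transcript start are shown 5′ to 3′ on GRCm38.p6, all on the plus strand, at chr5:47982905-47983154 for Slit2, chr11:35121206-35121455 for Slit3, chr13:54949161-54949410 for Unc5a and chr3:141465314-141465563 for Unc5c. Capitals mark the GC box letters GGGCGG and the TATA box letters TATAAA, read on both strands, with overlapping matches counted.
Slit2: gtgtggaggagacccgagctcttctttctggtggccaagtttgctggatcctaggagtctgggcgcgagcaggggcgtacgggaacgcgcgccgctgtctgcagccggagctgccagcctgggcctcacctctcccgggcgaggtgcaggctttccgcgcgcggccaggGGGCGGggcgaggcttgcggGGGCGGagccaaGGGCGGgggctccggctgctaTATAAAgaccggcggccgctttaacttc
Slit3: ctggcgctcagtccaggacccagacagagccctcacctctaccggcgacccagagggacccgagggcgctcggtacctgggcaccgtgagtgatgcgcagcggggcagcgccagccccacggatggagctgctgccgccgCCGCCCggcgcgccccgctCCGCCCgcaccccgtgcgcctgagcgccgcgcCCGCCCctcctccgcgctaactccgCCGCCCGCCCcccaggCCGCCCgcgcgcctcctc
Unc5a: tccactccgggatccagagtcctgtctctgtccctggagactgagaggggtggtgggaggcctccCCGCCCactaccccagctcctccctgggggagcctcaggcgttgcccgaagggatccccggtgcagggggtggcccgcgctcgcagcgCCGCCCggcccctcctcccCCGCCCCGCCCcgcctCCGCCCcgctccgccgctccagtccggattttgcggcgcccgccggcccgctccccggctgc
Unc5c: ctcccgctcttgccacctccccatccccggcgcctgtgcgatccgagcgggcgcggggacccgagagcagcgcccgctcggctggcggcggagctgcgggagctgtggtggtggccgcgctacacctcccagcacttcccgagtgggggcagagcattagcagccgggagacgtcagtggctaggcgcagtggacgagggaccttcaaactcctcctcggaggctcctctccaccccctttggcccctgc
Slit3 held 6 GC box matches, Unc5a 5, Slit2 3 and Unc5c 0, and 32.7% of 32851 mouse promoter windows held at least 1. Slit2 alone of the 4 held a TATA box match, as 12.4% of windows did. The E-box letters CACGTG were found in none of the 4 and in 6.02% of windows. These windows had 23 to 35 CpG dinucleotides, against a median of 6 over all windows. They were 69.6% to 78.8% GC, against a median of 52.4%, so the 32.7% is not a share among windows of like GC content. Of the other matched genes, Robo1 and each start of Robo2 held 0 GC box matches. A match is a description of these letters and was not tested against the expression values.

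Ligands were set against receptors within each library by summing CPM per kb of exon. The 4 ligands summed to 14.0, 21.8, 26.1 and 29.3 CPM per kb in KO1 to KO4 and to 16.7, 32.5, 29.2 and 27.3 in WT1 to WT4. The 6 receptors summed to 70.4, 63.2, 64.8 and 75.6 CPM per kb in KO and to 84.1, 92.3, 72.8 and 74.3 in WT. Receptors therefore exceeded ligands in each library, and both sums overlapped between genotypes. The ligand share of the total was 16.6%, 25.6%, 28.7% and 27.9% in KO1 to KO4 and 16.6%, 26.1%, 28.6% and 26.8% in WT1 to WT4. KO1 and WT1 had the same low share, the other 6 libraries lay within 25.6% to 28.7%, and the genotype means were 24.7% ± 5.56 and 24.5% ± 5.39 (SD, n = 4 each). No p is given for these sums, since their genes were chosen with results known.

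Slit1 made up 68.5% to 85.5% of the 3 Slits per kb of exon in KO and 73.7% to 83.4% in WT. Per kb of coding length, a scale added after the data were seen, its share was 49.2% to 75.6% in KO and 56.7% to 72.4% in WT, with KO1 lowest. Robo2 made up 36.9% to 52.3% of the 2 ROBO receptors in KO and 32.8% to 54.8% in WT per kb of exon, but 53.1% to 68.1% and 48.7% to 70.1% per kb of coding length, so which of the 2 was higher depended on the length used. Among the 3 UNC5 receptors, per kb of exon, Unc5a held 8.19% in KO1 and 8.25% in WT1, against 27.4% to 41.9% in KO2 to KO4 and 28.5% to 37.1% in WT2 to WT4. Unc5c held 51.0% and 40.4% in those 2 libraries, against 22.7% to 35% elsewhere. Per kb of coding length KO1 and WT1 were again the 2 lowest for Unc5a, at 3.52% and 3.67% against 13.8% to 23.5% in the other 6, whereas for Unc5c WT3 (51%) lay above WT1 (50.2%).

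**Figure D4:**
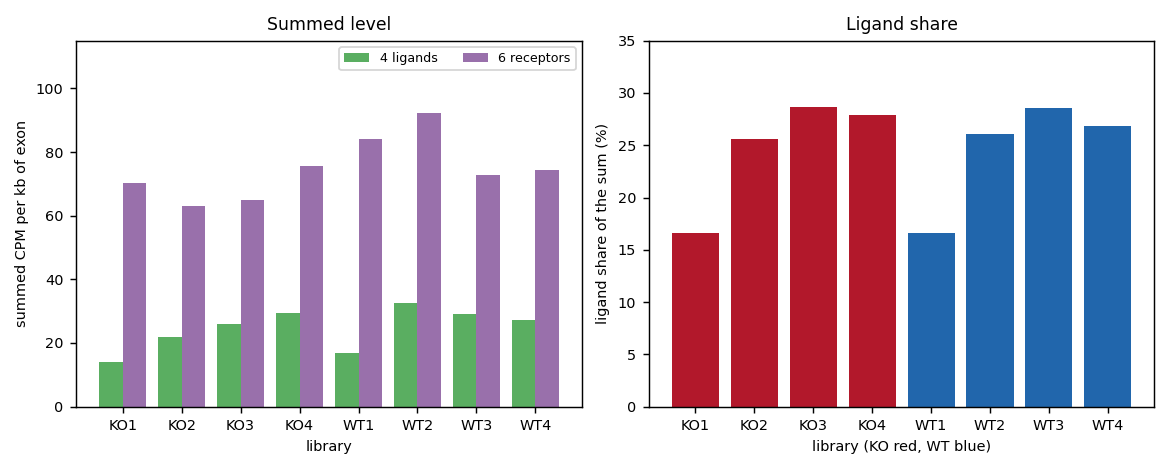
Left, summed level (CPM per kb of exon) of the 4 ligands and 6 receptors in each library. Right, ligand share of the total in percent, KO in red and WT in blue, with KO1 and WT1 both at 16.6% and the other 6 libraries between 25.6% and 28.7%.

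Other genes of the pathway were read from a list of 62 genes that covered further netrins and receptors, FLRT and RGM proteins, heparan sulfate enzymes and cytoplasmic effectors. Of these 57 were tested, and the median log2 fold change was −0.015, with 33 of 57 below 0 against 46.2% of all genes. By edgeR 0 of 57 passed the adjusted threshold, against 0.0492% of all genes. At an unadjusted p under 0.05 in edgeR, 3 were lower in KO, against 5.75% of all genes, and 0 were higher, against 4.87%. The 3 were Ext1, Dscam and Hs2st1. In either direction, 4 pathway genes had such a p by DESeq2, against 9.6% of all genes, and 3 by limma-voom, against 10.5%. Family members outside the 10 guidance genes, named here to complete the families, had adjusted p from 0.495 to 0.989 in edgeR, with log2 fold changes of −0.54 ± 0.25 (SE) for Ntng1 and −0.11 ± 0.11 for Ntng2, which encode membrane-anchored netrin-G proteins, 0.01 ± 0.11 for Ntn4, 0.03 ± 0.34 for Unc5b, 0.04 ± 0.17 for Robo3 and −0.14 ± 0.091 for Neo1, a DCC relative that binds netrins and RGM proteins. Ntng1 had 9.15, 8.87, 11 and 9.95 CPM in KO1 to KO4 and 18.0, 17.3, 7.07 and 15.4 CPM in WT1 to WT4. As for Unc5d, WT3 was the lowest of all 8 libraries and the other WT libraries lay above every KO library. Neo1 averaged 834 ± 51.4 CPM (SD) for KO against 924 ± 181 CPM for WT.

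Ext1, which encodes a glycosyltransferase that builds heparan sulfate chains, had 80.5, 80.7, 76.8 and 81.6 CPM in KO1 to KO4 and 93.0, 101, 91.9 and 101 CPM in WT1 to WT4. The genotypes did not overlap, and Ext1 was the only pathway gene tested of which this was true in that direction (1 of 57, against 1.12% of all genes). Its log2 fold change was −0.27 (SE 0.059), with an unadjusted p of 0.000945 and an adjusted p of 0.230 in edgeR. Dscam, a cell adhesion molecule that also acts as a netrin receptor, averaged 84.3 ± 5.50 CPM (SD, n = 4) for KO against 94.2 ± 5.38 CPM for WT, a log2 fold change of −0.16 ± 0.059 (SE) with an edgeR adjusted p of 0.406. Hs2st1, a heparan sulfate sulfotransferase, averaged 128 ± 5.54 and 146 ± 17.6 CPM, a log2 fold change of −0.19 ± 0.079 (SE) with an edgeR adjusted p of 0.445.

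For 9 of the guidance genes, the gene with the most similar pattern over the 8 libraries was found among 13699 others with a mean of at least 1 CPM, by the same root-mean-square difference. Slit1 was nearest to Dolpp1 (0.0871 log2 units), Slit2 to the cation channel gene Trpc4 (0.0823) and Ntn1 to the formin gene Fhdc1 (0.113). Among the receptors, Unc5c was nearest to Rad9b (0.0451), Robo2 to Ano4 (0.0601), Robo1 to the Wnt receptor gene Fzd1 (0.109), Dcc to B230216N24Rik (0.101), Unc5a to Fam171a2 (0.134) and Unc5d to the identifier ENSMUSG00000094551 (0.0983). None of these 9 genes passed the adjusted threshold between genotypes in edgeR, the lowest adjusted p being 0.479 for Trpc4 (log2 fold change −0.27, SE 0.12).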

How the data were processed

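RNA sequencing of poly-A RNA was available for 4 KO and 4 WT libraries, grouped by their labels. The authors deposited unnormalized counts for each Ensembl gene. They trimmed reads with Cutadapt 1.10, discarded ribosomal RNA reads, aligned to mm10 (GRCm38) with STAR 2.5.3a and counted uniquely aligned reads with HTSeq-count 0.6.1p1 in union mode. Reads shared by overlapping genes are left uncounted in this mode. All 8 count columns were matched to a sample. Of 32726 identifiers, 23260 were matched to a symbol.

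Differences were tested with edgeR 4.0.16 under R 4.3.3 (filterByExpr, TMM scaling, robust quasi-likelihood F test, Benjamini-Hochberg adjustment over 16272 genes, threshold 0.05), with 1 surrogate variable from svaseq (sva 3.50.0) following the study's design. The SE is the absolute log2 fold change divided by the square root of F. CPM values use TMM-scaled library totals, and log2 CPM a prior count of 2. Exon and coding lengths are unions from GENCODE vM1 (NCBIM37), from which no coordinates were taken. Positions, promoters and microRNAs are from RefSeq (GRCm38.p6). Alternatives used DESeq2 1.42.0, limma 3.58.1, other terms, filters and size factors, single lanes and left-out libraries. The procedure was tested on simulated data that held no lane, strain or library pattern and larger changes than those of the guidance genes. That test does not cover effects of the size found here, and its outcome is not reported here.

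Genes named were the 10 guidance genes, Nuak1, the nearest gene of each (not reported here for 1 of them), pathway genes with an unadjusted p under 0.05, leading markers of cell type lists, and overlapping genes. Ddx3y, Tmem119, Cldn5, Ntn4, Unc5b, Robo3, Neo1, Ntng1 and Ntng2 were named after their values were seen. The guidance genes and the lists were chosen with earlier results of these data known.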

Additional observations from a re-analysis of the deposited data

Results flagged for a closer look

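Within each genotype, the distance of the extreme value from its neighbour was taken as a share of the full range and compared with 0.829, the 95% critical value of Dixon's ratio for 4 values. Of 22 groups of 4 values tested, 1 did so, and chance gives 1.1. It was Robo1 in KO4, at 267 CPM, against 178 to 191 CPM in the other KO libraries (a share of 0.855). Without KO4 the log2 fold change of Robo1 was −0.51 in place of −0.33. Leaving out other single libraries gave −0.53 (without WT3) to −0.13 (without WT2), and −0.22 without KO1, and none of these passed the adjusted threshold in edgeR.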

How the results depend on the processing

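Of the 10 guidance genes, 0 passed the adjusted threshold in 21 of 22 alternatives, and 1, Unc5d, passed without WT3. The number lower in KO stayed between 7 and 10, with no share of all genes worked out for the alternatives. The number at an unadjusted p under 0.05, 2 in the model used, was 0 with no surrogate variable, 4 with no filter, 0 on lane A alone, 5 on lane B alone, 1 without the pair KO3 and WT4, and 0 to 5 when single libraries were left out (0 without KO2 or KO3, 1 without WT4, 5 without WT3). Over all genes the 8 calls became 4 with no surrogate variable, 4 with 2 surrogate variables, 14 with lane as a term, 2 with the strain label as a term, 45 with no filter, 168 with DESeq2, 0 on lane A alone, 99 on lane B alone, 3 without the pair KO1 and WT1, 3 without the pair KO3 and WT4, and 3 to 91 when single libraries were left out (91 without WT3, 11 without KO4). The 3 pathway genes at an unadjusted p under 0.05 became 1 with no surrogate variable, 14 with 2 surrogate variables, 5 with lane as a term, 17 with the strain label as a term, 0 on lane A alone, 12 on lane B alone, 1 without either pair, and 1 to 18 when single libraries were left out (1 without WT2, 18 without WT3). Of all genes, 10.6% had an unadjusted p under 0.05 in the model used, 2.52% with no surrogate variable, 12.1% with 2, 14.5% with lane as a term, 13.9% with strain labels fitted, 6.83% with no filter, 0.591% for lane A, 11.2% for lane B, 4.05% without KO1 and WT1, 8.90% without KO3 and WT4, and 5.45% (without WT1) to 15.6% (without WT3) with single libraries left out.

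The sign of the log2 fold change reversed for Ntn1 (0.01 with the replicate block, 0.13 on lane A, 0.14 without WT2), Unc5a (0.07 on lane A, 0.08 without WT2), Robo1 (0.05 on lane A), Robo2 (0.02 with the strain label fitted, a model in which KO4, WT2 and WT4 alone carry the genotype difference) and Unc5c (0.01 with no surrogate variable, 0.13 with 2, 0.02 with the replicate block, 0.03 with the strain label, 0.11 on lane B, 0.02 without KO4, 0.14 without WT3). Leaving out single libraries gave −0.17 to 0.14 for Ntn1, −0.20 to 0.08 for Unc5a and −0.20 to 0.14 for Unc5c. Unc5d was −0.40 without WT3. Slit1, Slit2, Slit3, Dcc and Unc5d kept a negative sign in all 22 alternatives. The causes were not tested.

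Libraries of the same replicate number deviated together only in part (correlations 0.800, 0.0122, 0.249 and 0.00225 for numbers 1 to 4 across genes, and only number 1 matched best with its own partner), so the numbers were not taken to pair the libraries. With the replicate block 3 genes passed over all genes and 0 guidance genes passed. There 2 guidance genes and 5 pathway genes had an unadjusted p under 0.05 in edgeR, against 9.99% of all genes. The ligand share was 17.9% in KO and 17.8% in WT without division by length, and 17.0% in both per kb of coding length, an alternative added after the data were seen. It ranged from 23.4% to 27.4% in KO and from 23.2% to 27.2% in WT when single libraries were left out. Coding length from a protein table was not run, since no such table was used here. Single lanes left 2 libraries per genotype. The fits of single lanes and without the pair KO1 and WT1 also had no surrogate variable, so their counts moved with both changes at once.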
